A study of Mus musculus with 6 samples.

Results

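The mouse genes *Abcb1a*, *Abcb1b*, *Abcb4*, *Abcb11*, *Abcc1*, *Abcc2*, *Abcc3*, *Abcc4*, *Abcc5* and *Abcg2* encode ABC transporters that carry drugs, bile components or organic anions out of cells, and several of them have been linked to doxorubicin resistance. They were taken by name, and all 10 were found among the 39179 genes of the deposited counts. The counts come from primary osteosarcomas of *Nf2*-mutant mice, with mRNA of 6 tumors sequenced from one end. The labels of 3 tumors read CD44+/+; Nf2Δ2/+ (mice No244, No316 and No368) and the others CD44-/-; Nf2Δ2/+ (mice No203, No364 and No279), so that all tumors share the *Nf2*Δ2/+ genotype and the groups differ in *Cd44*, the gene of a hyaluronic acid receptor. All mice were of a mixed C57BL/6 x 129/Sv x FVB background, and neither age nor any drug treatment is given in the labels. The protocol of the labels names cell lines as the source of RNA, whereas the titles and the study's methods name tumor tissue. The question was whether transporter mRNA differed between *Cd44*+/+ and *Cd44*-/- tumors. None of the 8 transporters with enough counts to be tested passed the threshold, as none of all genes tested did (0%). The levels varied mainly from tumor to tumor. The *Cd44*-/- tumor No364 had the highest level of 6 of the 10 transporters, among them *Abcb11* and *Abcc2*, which were close to the detection limit in the other 5 tumors. Among the 8 tested transporters, No364 was highest for 4, where the share over all genes tested was 25%. *Abcc5*, the most abundant transporter by length-scaled level in 4 tumors, was lower in all *Cd44*-/- than in all *Cd44*+/+ tumors, by less than the test could separate from the spread. Of all genes tested, 9.57% were likewise lower without overlap.

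ABC transporters are membrane proteins that use the energy of ATP to move their substrates across a membrane. MDR1 (P-glycoprotein) expels doxorubicin and many other drugs from tumor cells, and mice have a pair of genes for it, *Abcb1a* and *Abcb1b*. In the liver, relatives of MDR1 stand on the bile canaliculus of hepatocytes, where they secrete bile salts, phospholipid and conjugated bilirubin, while others return organic anions to the blood. Other family members, such as *Abcc1* and *Abcc5*, are made in many tissues.

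Total counts lay between 18076388 and 26954142 per tumor, and 3 counts, the smallest level taken as detectable, corresponded to between 0.0982 and 0.250 CPM (read counts relative to the library total, normalized with the TMM factors of edgeR). Wherever 3 values are given for a genotype, they follow the order No244, No316, No368 for *Cd44*+/+ and No203, No279, No364 for *Cd44*-/-. *Cd44* itself was at 136.1, 241.5 and 238.3 CPM in *Cd44*+/+ and at 19.1, 15.6 and 61.2 CPM in *Cd44*-/- libraries, lower without overlap, with a log2 fold change of -2.68 and an adjusted p of 0.452 by edgeR and 0.0145 by DESeq2 (0.178 by DESeq2 with the near-proportional pair No316 and No368 summed). The libraries No316 and No368 were nearly proportional. For 87.2% of their genes the counts differed by no more than binomial sampling noise, against 15.8% to 23.9% in the other pairs of libraries, and all 10 transporter genes lay within that noise (exact binomial test). Each mean ± SD takes their average as 1 sample. In No244 55.2% of the counts were mitochondrial, against 5.94% to 12.5% elsewhere, and No244 also held the most counts of skeletal muscle genes, with 18013 CPM summed over 6 markers against 13.96 to 636.4 CPM in the other tumors.

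Markers of the labelled tissue were not equally present. The 10 osteoblast markers summed to between 20914 and 81215 CPM in 5 tumors and to 1452 CPM in the *Cd44*-/- tumor No364. Of the 20914 CPM in No279, however, *Col1a1* and *Col1a2*, the genes of type I collagen, gave 11888 and 8918 CPM. *Sp7* and *Ibsp*, which mark bone-forming cells and are named here after their values were seen, were at 0.311 and 2.23 CPM in No364 and at 3.93 and 3.24 CPM in No279, and between 190.3 and 4779 CPM in the other tumors. *Alpl*, *Bglap*, *Bglap2* and *Dmp1*, further bone genes, were likewise between 0.360 and 7.10 CPM in No279 and between 0.519 and 19.5 CPM in No364, against 145.4 to 3451 CPM in the other tumors. *Runx2* and *Phex*, also osteoblast markers, were not as low in No279. *Runx2* was at 67.7 CPM there and 5.71 CPM in No364, against 94.2 to 171.8 CPM in the other tumors. *Phex* was at 15.8 CPM in No279, above No316 and No368 (at most 7.89 CPM). It was higher in No244 (53.3 CPM) and No203 (69.4 CPM) and lowest in No364. The 25 hepatocyte markers summed to 164660 CPM in No364 and to between 66.8 and 216.6 CPM elsewhere. All 23 of them that were tested were highest in No364, and none was at 0 in any library. *Alb*, the gene of serum albumin, took 4.27% of the counts in No364 and at most 0.0110% in the others. The bile duct and Kupffer cell lists were also highest in No364, at 41.6 and 125.4 CPM summed over 5 markers each, whereas the 10 endothelial markers were lowest there (127.0 CPM against 414.6 to 539.8 CPM). The Y-linked gene *Ddx3y* was counted 571 times in No279, 429 times in No364 and at most 1 time in any other tumor. *Eif2s3y*, also Y-linked, was at 15.8 and 29.7 CPM in these *Cd44*-/- tumors, at 3.25 CPM in No244 and at 0 counts elsewhere. *Xist* was at 0.720 and 0.986 CPM in the same *Cd44*-/- tumors, against 851.6 to 1231 CPM in the remaining tumors. The part of these differences in the transporter levels was not tested. In bulk tissue, a smaller number of cells of one type and less RNA per cell cannot be told apart.

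The MDR1 genes *Abcb1a* (ENSMUSG00000040584, chromosome 5 of GRCm38, 8660077 to 8748575) and *Abcb1b* (ENSMUSG00000028970, chromosome 5, 8798147 to 8866315) lie next to each other on the plus strand and are followed by *Abcb4* (ENSMUSG00000042476, chromosome 5, 8893717 to 8959231). Their coding sequences were aligned to see how far 51-base reads can tell them apart. *Abcb1a* and *Abcb1b* were identical at 88.0% of 3819 aligned bases and shared an unbroken run of 338 bases, while *Abcb4* was identical to *Abcb1a* at 75.3% and to *Abcb1b* at 73.7% of the aligned bases. The end of that run, in the part that encodes the first nucleotide-binding domain, is printed below from the GENCODE M21 transcripts. The capitals mark bases that differ from *Abcb1a*. The lines cover coding bases 1590 to 1709 of *Abcb1a* and 1599 to 1718 of both *Abcb1b* and *Abcb4*.
Abcb1a: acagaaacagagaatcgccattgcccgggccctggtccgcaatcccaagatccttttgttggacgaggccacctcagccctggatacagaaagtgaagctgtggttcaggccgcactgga
Abcb1b: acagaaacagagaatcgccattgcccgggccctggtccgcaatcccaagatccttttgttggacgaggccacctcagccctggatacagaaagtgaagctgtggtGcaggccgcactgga
Abcb4: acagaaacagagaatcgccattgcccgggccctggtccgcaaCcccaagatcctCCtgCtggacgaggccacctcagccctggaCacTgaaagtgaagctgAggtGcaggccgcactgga

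*Abcb1b* differed from *Abcb1a* at 1 and *Abcb4* at 8 of these 120 bases. Over all annotated transcripts, 22.3% of the 51-base words of *Abcb1a*, 12.6% of those of *Abcb1b* and 2.78% of those of *Abcb4* also occur in a transcript of another gene, and at most 1.66% for each of the other transporters. These words were matched on either strand. For *Abcb1a* and *Abcb1b*, part of them are shared with genes annotated on the opposite strand of the same locus. A count that respects the strand could assign reads of that part. A read made of a word that *Abcb1a* and *Abcb1b* share with each other cannot be assigned to a single gene. The counts of both genes are therefore uncertain, to an extent that the above percentages may overstate. *Abcb1a*, *Abcb1b* and *Abcb11* also overlap 2 other annotated genes each, *Abcb4* and *Abcc1* overlap 1 each and *Abcc4* overlaps 3, and the strand setting of the counting is not given in the sources used here.

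The promoters of the 3 neighbours are shown because the study asks whether the MDR1 genes hold response elements for the cleaved intracellular domain of CD44. The windows run from 250 bases before to 50 bases after the RefSeq start (GRCm38.p6, plus strand). They were searched on both strands for the TRE (TGACTCA, or TGAGTCA on the opposite strand), the CIRE (CCTGCG), the CCAAT box (CCAAT) and the GC box (GGGCGG), all of which are in capitals where found. No 2 matches overlapped in these windows.
Abcb1a, chr5:8566841-8567140: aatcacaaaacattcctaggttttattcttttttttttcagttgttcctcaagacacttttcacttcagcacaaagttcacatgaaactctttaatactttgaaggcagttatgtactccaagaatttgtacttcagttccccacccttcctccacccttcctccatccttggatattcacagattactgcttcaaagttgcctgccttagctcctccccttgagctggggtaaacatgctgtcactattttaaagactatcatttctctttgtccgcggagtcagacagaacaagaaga
Abcb1b, chr5:8797897-8798196: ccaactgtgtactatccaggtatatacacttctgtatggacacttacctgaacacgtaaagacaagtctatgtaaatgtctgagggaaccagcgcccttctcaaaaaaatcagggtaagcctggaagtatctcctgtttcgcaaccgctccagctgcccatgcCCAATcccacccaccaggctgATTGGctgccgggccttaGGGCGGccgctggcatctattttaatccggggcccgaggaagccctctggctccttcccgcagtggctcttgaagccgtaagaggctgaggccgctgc
Abcb4, chr5:8893471-8893770: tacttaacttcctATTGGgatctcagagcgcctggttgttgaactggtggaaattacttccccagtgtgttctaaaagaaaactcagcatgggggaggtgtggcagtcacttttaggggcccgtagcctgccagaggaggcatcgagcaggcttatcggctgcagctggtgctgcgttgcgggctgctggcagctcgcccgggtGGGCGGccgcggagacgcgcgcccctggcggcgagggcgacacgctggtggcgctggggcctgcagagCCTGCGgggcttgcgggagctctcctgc

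The *Abcb1b* window held 2 CCAAT boxes and 1 GC box, the *Abcb4* window 1 CIRE, 1 CCAAT box and 1 GC box, and the *Abcb1a* window none of the motifs. Of all 32851 promoter windows, 5.20% held a TRE, 17.3% a CIRE, 37.4% a CCAAT box and 35.7% a GC box. None of the 11 windows found for 8 of the 10 transporters held a TRE. The RefSeq start of *Abcb1a* lies 93.0 kb before the start of the gene in GENCODE, so its window is only 1 of its possible promoters. The study examined a longer stretch upstream of the MDR1 genes than these windows, and that stretch was not analysed here. A missing match says only that these letters are not in these 300 bases.

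For *Abcb1a*, the *Cd44*+/+ tumors gave 4.08, 17.3 and 17.3 CPM and the *Cd44*-/- tumors 2.91, 37.7 and 36.9 CPM. The lowest level of all was in a *Cd44*-/- tumor, No203, and the genotypes overlapped. For *Abcb1b*, the levels were 3.25, 25.2 and 23.5 CPM against 5.94, 69.1 and 22.9 CPM. Both MDR1 genes were therefore low in No244 and No203, one tumor of each genotype, and highest in No279.

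The means of *Abcb1a* were 10.7 ± 9.34 CPM (SD, n = 2) in *Cd44*+/+ and 25.9 ± 19.9 CPM (SD, n = 3) in *Cd44*-/- tumors, a difference smaller than the SD of the *Cd44*-/- tumors. Those of *Abcb1b* were 13.8 ± 14.9 (SD, n = 2) and 32.6 ± 32.7 CPM (SD, n = 3). By edgeR's quasi-likelihood test with Benjamini-Hochberg adjustment over the 16839 genes tested, the log2 fold change of *Abcb1a* in *Cd44*-/- over *Cd44*+/+ tumors was 1.0 (standard error, SE, 0.97, adjusted p = 0.698). Its 95% interval ran from -1.31 to 3.31, with the near-proportional No316 and No368 taken as separate libraries. With that pair summed, the SE was 1.19 for *Abcb1a* and 1.24 for *Abcb1b*. The log2 fold change of *Abcb1b* was 0.91 (SE 1.02, 95% interval -1.52 to 3.35, adjusted p = 0.739 by edgeR). It was -0.27 without No279. The 3 against 3 libraries thus left room for a several-fold change of MDR1 mRNA in either direction.

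Because some reads cannot tell the MDR1 genes apart, their sum was followed as well. It came to 7.33, 42.5 and 40.7 CPM in *Cd44*+/+ and 8.85, 106.8 and 59.9 CPM in *Cd44*-/- tumors. The mean was 24.5 ± 24.2 CPM (SD, n = 2) in *Cd44*+/+ and 58.5 ± 49.0 CPM (SD, n = 3) in *Cd44*-/- tumors. The difference was again smaller than the SD of the *Cd44*-/- tumors. *Abcb1b* made up 44.3%, 59.3% and 57.6% of these counts in *Cd44*+/+ and 67.1%, 64.7% and 38.3% in *Cd44*-/- tumors. The 95% Clopper-Pearson intervals, which cover counting error only, were 35.5% to 41.2% in No364 and 63.0% to 66.3% in No279. The balance of the MDR1 genes thus differed between these *Cd44*-/- tumors by more than counting error, with *Abcb1a* the larger part in No364.

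**Figure D1:**
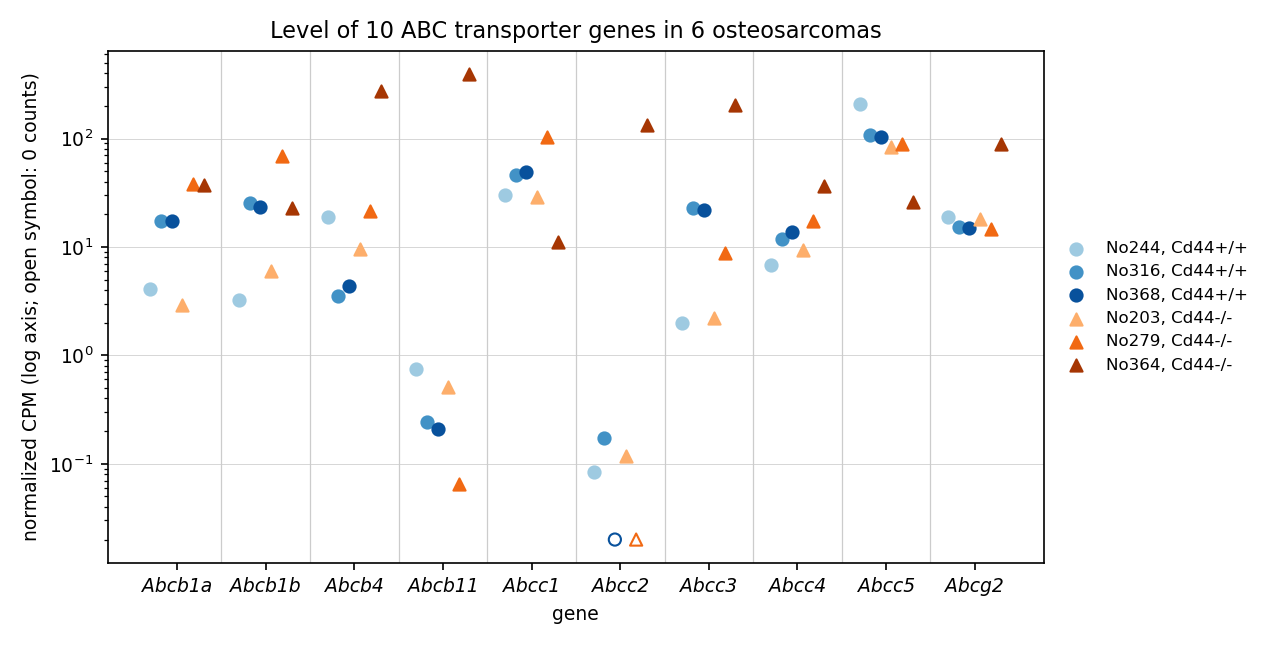
Normalized CPM (log axis) of the 10 transporter genes in each tumor, with circles for *Cd44*+/+ and triangles for *Cd44*-/- libraries and open symbols for 0 counts. *Abcb4*, *Abcb11*, *Abcc2*, *Abcc3*, *Abcc4* and *Abcg2* were highest in No364, whereas *Abcb1a*, *Abcb1b* and *Abcc1* were highest in No279 and *Abcc5* in No244.

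*Abcb11* and *Abcc2* formed the sharpest pattern, and it was a pattern of 1 tumor. *Abcb11*, the bile salt export pump (ENSMUSG00000027048, chromosome 2, 69238282 to 69342616, minus strand), was counted 7581 times in No364. The *Cd44*+/+ tumors held 9, 7 and 5 such counts and the *Cd44*-/- tumors No203 and No279 held 13 and 2. *Abcc2*, which secretes conjugated bilirubin (ENSMUSG00000025194, chromosome 19, 43782192 to 43840740, plus strand), was counted 2558 times in No364, at most 5 times in the *Cd44*+/+ tumors, 3 times in No203 and not at all in No279 or No368, where 0 counts allow a level of up to 0.0982 and 0.125 CPM. In CPM, No364 reached 393.4 for *Abcb11* and 132.7 for *Abcc2*, while no other tumor was above 0.750 and 0.172 CPM.

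Neither gene passed the low-count filter of edgeR, which asks for a minimum level in at least 3 libraries, so the 8 transporters tested do not include them. With all genes over a total count of 1 kept, the log2 fold change of *Abcb11* was 8.38 with a standard error of 3.02 (adjusted p = 0.495 by edgeR), and that of *Abcc2* also had an adjusted p of 0.495 by edgeR. DESeq2 gave neither gene an adjusted p because of an outlying count by Cook's distance. Without that filter DESeq2 called *Abcb11* (adjusted p = 0.00137) and not *Abcc2* (adjusted p = 0.0875), on the counts of a single tumor. The share of genes called under that setting was 6.15%.

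*Abcb4*, which moves phosphatidylcholine into bile, was at 272.6 CPM in No364, 12.6 times the next library. The *Cd44*+/+ tumors stood at 19.1, 3.55 and 4.37 CPM and the remaining *Cd44*-/- tumors, No203 and No279, at 9.67 and 21.6 CPM, so that the genotypes overlapped through No244. The means were 11.5 ± 10.7 (SD, n = 2) and 101.3 ± 148.5 CPM (SD, n = 3), with an SD in *Cd44*-/- tumors above their mean. The log2 fold change was 3.50 with a standard error of 1.42 (adjusted p = 0.459 by edgeR). It fell to 0.82 (SE 0.87, adjusted p = 0.786 by edgeR) without No364.

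*Abcc3*, a carrier of bile salts and glucuronides on the blood side of hepatocytes (ENSMUSG00000020865, chromosome 11, 94343295 to 94392997, minus strand), was at 205.6 CPM in No364. Among the other tumors it was highest in the *Cd44*+/+ libraries No316 and No368, at 22.9 and 21.9 CPM, followed by 8.71 CPM in No279, 2.20 CPM in No203 and 2.00 CPM in No244. With No364 its log2 fold change was 2.21 (SE 1.65, adjusted p = 0.619 by edgeR), and it was -1.51 (SE 1.16, adjusted p = 0.702 by edgeR) without it. The direction for *Abcc3* thus rested on No364 alone, and the cause was not tested.

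*Abcc4*, which carries cyclic nucleotides, nucleotide drugs and bile acids (ENSMUSG00000032849, chromosome 14, 118482692 to 118706219, minus strand), varied least among transporters highest in No364. Its levels were 6.75, 12.0 and 13.7 CPM in *Cd44*+/+ and 9.40, 17.2 and 36.2 CPM in *Cd44*-/- tumors, so that the genotypes overlapped. A log2 fold change of 0.95 (SE 0.59, adjusted p = 0.554 by edgeR) was 0.31 without No364.

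*Abcg2*, an exporter of urate and of topoisomerase inhibitors (ENSMUSG00000029802, chromosome 6, 58584523 to 58695676, plus strand), was at 88.6 CPM in No364. In the other 5 tumors it stayed within a narrow range, with 18.9, 15.2 and 15 CPM in *Cd44*+/+ tumors and 17.9 and 14.6 CPM in No203 and No279. With all tumors the log2 fold change was 1.30 (SE 0.73, adjusted p = 0.525 by edgeR). Without No364 it was -0.00043 (SE 0.34, adjusted p = 1 by edgeR), the smallest size among the 8 transporters tested.

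The widely expressed carriers behaved otherwise. *Abcc1* (MRP1), an exporter of glutathione conjugates and anthracyclines (ENSMUSG00000023088, chromosome 16, 14361558 to 14475737, plus strand), was at 30.4, 46.2 and 48.8 CPM in *Cd44*+/+ tumors. The *Cd44*-/- tumors spanned the whole range, with 28.8, 103.6 and 11.2 CPM. The means were 39.0 ± 12.1 (SD, n = 2) and 47.8 ± 49.0 CPM (SD, n = 3), and the log2 fold change was 0.19 (SE 0.77, adjusted p = 0.934 by edgeR). It was -1.06 without No279.

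*Abcc5*, an exporter of cyclic nucleotides and other organic anions (ENSMUSG00000022822, chromosome 16, 20331303 to 20426394, minus strand), was the only one of the 8 tested transporters whose genotypes did not overlap. Its levels were 209.5, 108.3 and 103.1 CPM in *Cd44*+/+ and 83.5, 88.8 and 25.9 CPM in *Cd44*-/- tumors. Over all genes tested, 9.57% were lower in *Cd44*-/- tumors without overlap. The highest *Cd44*-/- tumor, No279, lay close below the lowest *Cd44*+/+ library, No368. The means were 157.6 ± 73.4 (SD, n = 2) and 66.1 ± 34.9 CPM (SD, n = 3). At -1.09 with a standard error of 0.58, the log2 fold change did not pass the test (adjusted p = 0.509 by edgeR and 0.477 by DESeq2). It was -0.69 (SE 0.44) without No364.

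Counted together, 0 of the 8 tested transporters and 0 of all 16839 genes tested had an adjusted p under 0.05 by edgeR. At an unadjusted p under 0.05 there was 1 transporter, *Abcb4*, where the share over all genes tested was 10.7% (6.44% higher and 4.31% lower in *Cd44*-/- tumors). There was none without No364, where the share over all genes was 8.81%, and none with No316 and No368 summed, where it was 4.26%. DESeq2 with its defaults called 0 of the 7 transporters to which it gave an adjusted p, and 2.33% of all genes. With No316 and No368 summed it called 0 transporters and 0.797% of all genes. No364 held the highest level of 4 of the 8 tested transporters, where the share over all genes was 25%, and exceeded the next library by more than 3 times for 3 of the 8, against 6.3% of all genes. The genotypes did not overlap for 1 of 8 transporters, where the share over all genes was 19.1%. The fold change was above 0 for 7 of the 8, with a median log2 fold change of 0.98, where it was above 0 for 55.1% of all genes with a median of 0.11. Without No364 the medians were 0.48 over the 8 transporters and 0.04 over all genes. Because the transporters were chosen with earlier results of these data known, no test was made over them as a group.

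**Figure D2:**
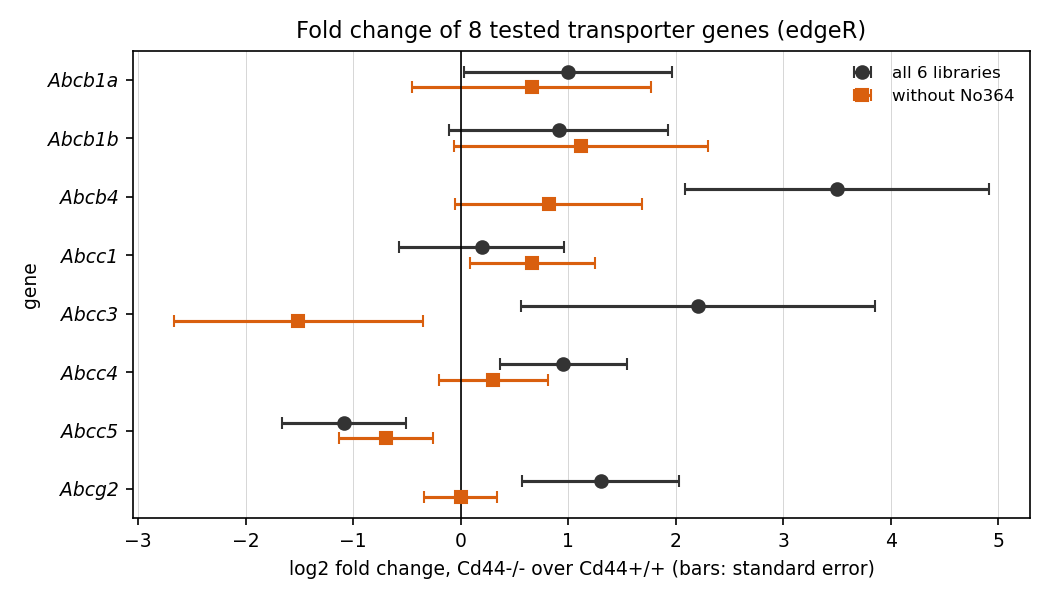
Log2 fold change in *Cd44*-/- over *Cd44*+/+ tumors of the 8 transporters tested by edgeR, with all 6 libraries (circles) and without No364 (squares), with bars for the standard error. Without No364, *Abcb4* moved from 3.50 to 0.82, *Abcc3* from 2.21 to -1.51 and *Abcg2* from 1.30 to close to 0, while *Abcb1a* moved from 1.0 to 0.66 and *Abcb1b* from 0.91 to 1.12.

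To compare levels between genes, CPM were divided by the exon length of each gene in kilobases (RPKM). In 4 of the 6 tumors *Abcc5* held the largest part of the summed RPKM of the 10 transporters, with 68.4%, 36.6% and 35.4% in the *Cd44*+/+ tumors and 48.3% in No203. In No279 *Abcb1b* (22.1%) stood close to *Abcc5* (21.3%), followed by *Abcb1a* (17.6%) and *Abcc1* (17.6%). The MDR1 genes were thus both among the leading transporters of that tumor, an order that was not tested. The order depends on the length used, which covers all annotated exons of a gene (15092 bases for *Abcc1*). By CPM *Abcc1* led in No279 with 103.6, before *Abcc5* with 88.8 and *Abcb1b* with 69.1.

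No364 had another order. There *Abcb11* held 41.0% of the summed RPKM, *Abcc3* 19.4%, *Abcb4* 15.6% and *Abcc2* 8.34%, and *Abcc5* fell back to 1.30%. *Abcb11* at 76.4 RPKM was the most abundant transporter of that tumor. In the other 5 tumors *Abcb11* and *Abcc2* took the last places, with at most 0.613% and 0.0853% of the summed RPKM.

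**Figure D3:**
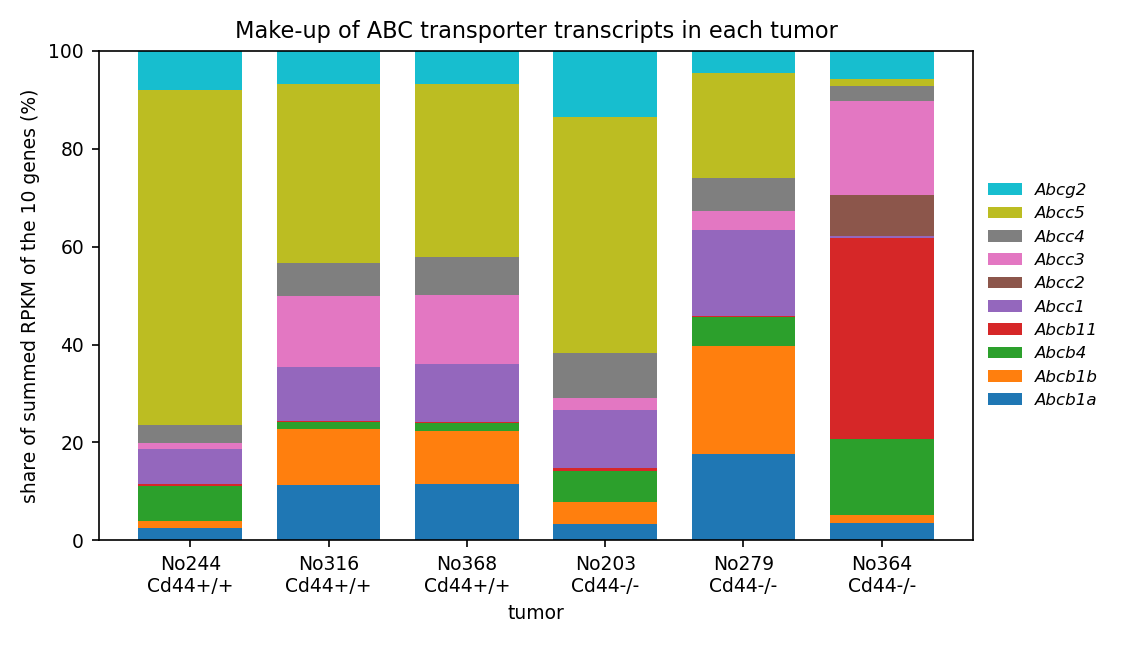
Share of each gene in the summed RPKM of the 10 transporters (percent, stacked to 100) in each tumor. *Abcc5* was the largest part in No244, No316, No368 and No203, *Abcb1b* and *Abcc5* were about equal in No279, and *Abcb11*, *Abcc3*, *Abcb4* and *Abcc2* filled most of the bar of No364.

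The genes on either side of the cluster on chromosome 5 were examined as well. *Crot*, a peroxisomal carnitine acyltransferase gene that comes next after *Abcb4*, was at 872.2 CPM in No364 and between 37.9 and 56.5 CPM elsewhere. *Tmem243*, the following gene, was at 88.4 CPM in No364 and between 6.37 and 14.2 CPM elsewhere. On the other side, *Rundc3b* was at 0.830 CPM in No364, within its range of 0.236 to 3.58 CPM in the other tumors, and *Slc25a40*, a mitochondrial carrier gene, at 7.52 CPM, within 4.58 to 14.5 CPM. No364 was thus the highest tumor at *Abcb4*, *Crot* and *Tmem243*. At *Abcb1a* its 36.9 CPM were next to the 37.7 CPM of No279, and at *Abcb1b* it was below No279. Over all genes tested, 25% were highest in No364 and 6.3% exceeded the next library there by more than 3 times. Whether position had a part in these levels was not tested. None of these neighbours had an adjusted p under 0.05 by edgeR (the smallest was 0.460, of *Crot*).

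**Figure D4:**
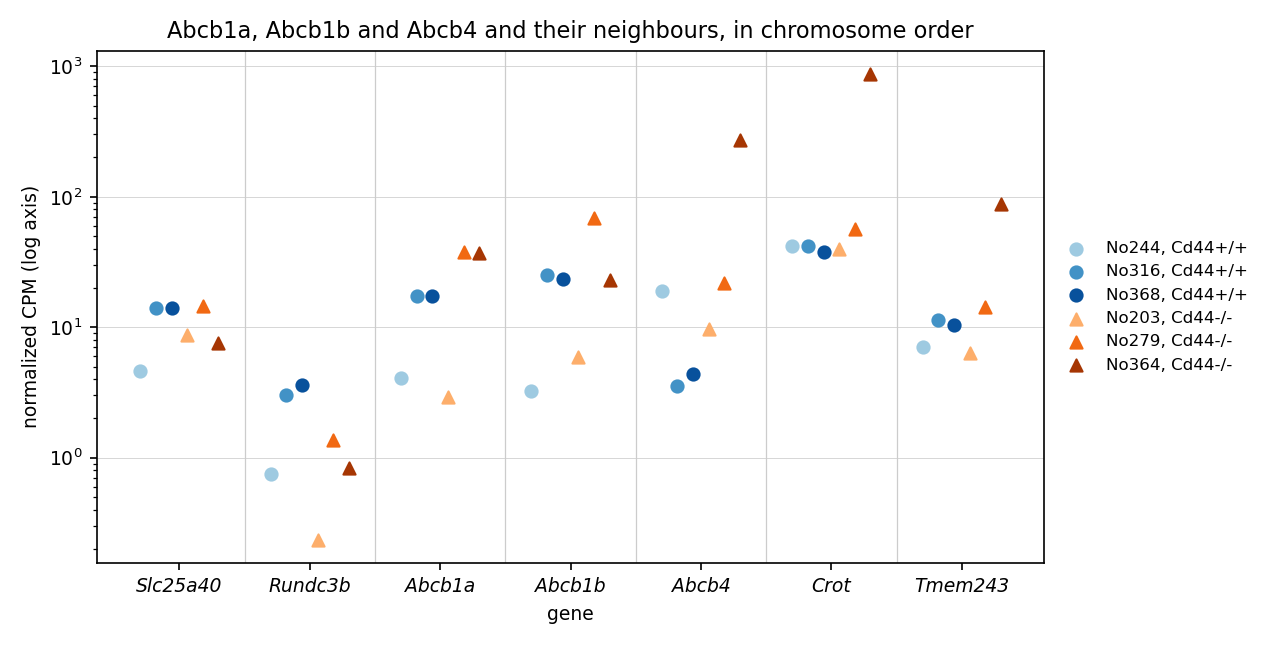
Normalized CPM (log axis) of *Abcb1a*, *Abcb1b*, *Abcb4* and the protein-coding genes next to them on chromosome 5 in each tumor, with circles for *Cd44*+/+ and triangles for *Cd44*-/- libraries. No364 stands above the other tumors at *Abcb4*, *Crot* and *Tmem243* and lies within their range at *Slc25a40*, *Rundc3b*, *Abcb1a* and *Abcb1b*.

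Of 43 other ABC genes, 30 were tested, with 17 fold changes above and 13 below 0 (median 0.23). Without No364 the median turned to -0.42. None had an adjusted p under 0.05 by edgeR, and 3 had an unadjusted p under 0.05 (1 higher and 2 lower in *Cd44*-/- tumors), against 8 without No364. Over all genes tested the share at that unadjusted p was 10.7%, and 8.81% without No364. *Abca7*, a phospholipid transporter gene, was at 104.5, 55.1 and 55.6 CPM in *Cd44*+/+ and at 22.0, 11.7 and 7.0 CPM in *Cd44*-/- tumors. Its genotypes did not overlap, and the log2 fold change of -2.40 (SE 0.54, adjusted p = 0.452 by edgeR, 0.0151 by DESeq2) was -2.08 without No364. With No316 and No368 summed its adjusted p by DESeq2 was 0.118, so that the call was lost. *Abce1*, which recycles ribosomes and transports nothing, was at 39.0, 59.2 and 59.7 CPM in the *Cd44*+/+ and 147.3, 110.1 and 132.0 CPM in the *Cd44*-/- tumors, again without overlap. The log2 fold change of 1.30 (SE 0.35, adjusted p = 0.452 by edgeR, 0.0653 by DESeq2) was 1.29 without No364.

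*Abca9* had a log2 fold change of -1.30 (adjusted p = 0.452 by edgeR), and of -1.21 without No364. *Abca1*, the cholesterol exporter, and *Abcf1*, a translation factor, were among the most abundant of the family and had log2 fold changes of -0.48 and -0.56 (adjusted p = 0.845 and 0.670 by edgeR), which were -1.21 and -0.44 without No364. *Abcc6* and *Abcg5*, liver ABC genes picked after their values were seen, were at 89.9 and 114.8 CPM in No364 and at most at 0.0982 and 0.333 CPM elsewhere, much as *Abcb11* and *Abcc2*.

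Most of the tested carriers of bile components and organic ions were highest in No364. The list of 19 includes the ABC genes *Abcg5* and *Abcg8*, which are also among the 43 above. Of these 19 carriers 9 were tested, *Abcg8* among them, and 8 of these 9 were highest in that tumor, where the share over all genes tested was 25%. *Slco1b2*, which takes up drugs and bile acids into hepatocytes, was at 1006 CPM in No364 and between 0.250 and 0.833 CPM elsewhere, and *Slc47a1*, an exporter of organic cations, at 98.8 CPM against 0.0832 to 2.5 CPM. *Atp8b1*, a phospholipid flippase of the canaliculus, was at 48.1 CPM in No364 and next highest in No279 (14.8 CPM) against 1.87 to 3.83 CPM in the remaining tumors. *Tmem30a*, the partner subunit of such flippases, was between 101.6 and 136.2 CPM in 5 tumors and at 233.8 CPM in No364. *Slco3a1* ran against the list, with its highest level in No244 (56.7 CPM) and 17.0 CPM in No364. None of the 9 had an adjusted p under 0.05 by edgeR (0.452 for *Slco1b2*), and 2 had an unadjusted p under 0.05 by edgeR. Over all genes tested, 10.7% had such an unadjusted p. DESeq2 gave 13 of the 19 no adjusted p, among them *Slco1b2*, *Slco2b1*, *Slc22a3*, *Slc47a1* and *Abcg8* of the 9 tested. It called none of the other tested carriers. Without its Cook's distance filter the adjusted p of *Slco1b2* by DESeq2 was 0.00015. The median log2 fold change by edgeR was 1.68 with No364 and -0.80 without it.

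Among 18 tested genes of 19 that take up, bind or convert doxorubicin, 12 had a fold change above 0 (median 0.51, and 0.29 without No364). None had an adjusted p under 0.05 by edgeR, and 1 had an unadjusted p under 0.05, where the share over all genes tested was 10.7%. *Akr1c14*, an aldo-keto reductase gene, was at 237.0 CPM in No364 and 25.7 CPM in No279 and at most at 1.5 CPM elsewhere. Its log2 fold change of 6.26 had a wide error (SE 1.95, adjusted p = 0.452 by edgeR, 0.00395 by DESeq2), and No203 with 0.432 CPM was the lowest tumor of all. It was 3.52 without No364. With No316 and No368 summed the adjusted p by DESeq2 was 0.05 after rounding, so that the call was narrowly lost. *Akr1a1*, a reductase of carbonyl groups, was at 227.1, 217.9 and 216.4 CPM in *Cd44*+/+ and at 385.2, 353.6 and 394.9 CPM in *Cd44*-/- tumors, without overlap and with little spread (log2 fold change 0.78, SE 0.39, adjusted p = 0.492 by edgeR). *Gstp1* and *Gstp2*, near-identical glutathione transferase genes whose reads may be split, were at 739.6 and 658.1 CPM in No364 and at most at 149.1 and 128.5 CPM elsewhere. The drug target *Top2a*, added after its values were seen, ranged from 20.7 CPM in No244 to 119.9 CPM in No203 (log2 fold change 1.01, SE 0.59, adjusted p = 0.540 by edgeR, and 1.37 without No364).

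Of 21 regulators linked to the transporter genes 18 were tested, with 11 fold changes above 0 (median 0.27, and 0.08 without No364). None had an adjusted p under 0.05 by edgeR or DESeq2. At an unadjusted p under 0.05 by edgeR there were 2, where the share over all genes tested was 10.7%. *Nr1h4*, the bile acid receptor FXR that activates *Abcb11*, was at 73.5 CPM in No364, 3.63 CPM in No279 and at most at 0.916 CPM elsewhere, at 0 counts in No244. *Ahr*, a receptor for aromatic compounds, was at 188.4 and 65.0 CPM in No364 and No279 and between 5.98 and 14.4 CPM in the other tumors. Both had an adjusted p of 0.452 by edgeR, with log2 fold changes of 5.57 and 2.75 that were 1.85 and 1.47 without No364. *Fbxo21*, a ubiquitin ligase subunit, was at 110.7 CPM in No364 and between 6.16 and 27.8 CPM elsewhere. The abundant *Ctnnb1*, *Ybx1* and *Nfe2l2*, the genes of beta-catenin, the Y-box protein and NRF2, had log2 fold changes of -0.15, 0.65 and 0.10, with adjusted p-values of 0.929, 0.593 and 0.951 by edgeR. Without No364 they were 0.077, 0.88 and -0.22.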

How the data were processed

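For each tumor the authors deposited a column of unnormalized read counts over Ensembl genes. According to the study's methods and the submitters' processing notes, stranded mRNA libraries were read from one end (51 cycles), aligned to GRCm38 with HISAT2 2.0.2 and counted with featureCounts (Subread 2.0.0). How reads matching several genes were treated is not given in the sources used here. Total counts lay between 18076388 and 26954142 per tumor.

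Genotypes came from the sample labels. All genes passing filterByExpr were tested with edgeR 4.0.16 in R 4.3.3 (TMM, quasi-likelihood F test, genotype as single factor, Benjamini-Hochberg adjusted p under 0.05), and results for the transporters were read out of that fit. Standard errors were derived from the fold change and the F statistic. DESeq2 1.42.0, limma-voom (limma 3.58.1), other scalings and filters, a hepatocyte score as covariate, No316 and No368 summed and leaving out each tumor were the alternatives. No316 and No368 summed with No364 left out, and the count of transporters at an unadjusted p under 0.05, were added after seeing the data. The code was tested on simulated data.

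Symbols (37607 of 39179 identifiers matched), coordinates and exon lengths are from GENCODE M21, another release than the Ensembl 84 used for counting. Promoters are from RefSeq (GRCm38.p6). Coding sequences were aligned with mafft 7.526. The transporters and gene lists were chosen with earlier results of these data known. Named are the 10 transporters, *Cd44*, the 3 tested genes of each list with the smallest p and the 3 with the highest mean CPM, the 2 protein-coding neighbours on each side of the cluster and leading markers. Macrophage and erythroid markers (7 and 8 genes) summed to 447.1 to 1190 and 135.5 to 9514 CPM. Whether the tumors of one genotype were otherwise independent is known only from the labels, so p-values measure the spread between these libraries.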

Additional observations from a re-analysis of the deposited data

How the results depend on the processing

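Alternatives that changed the tool moved the counts of calls. The number of genes with an adjusted p under 0.05 was 0 by edgeR under each scaling, filter, covariate and left-out tumor and by limma-voom, but 419 with DESeq2, 1195 with DESeq2 without its Cook's distance filter and 146 with DESeq2 on No316 and No368 summed. Without the Cook's distance filter DESeq2 called 1 of the 10 transporters, 4 of the other ABC genes, 7 carriers (*Abcg5* being counted in both lists), 1 doxorubicin gene and 3 regulators. The share over all genes was 6.15%. These calls include *Slc10a1* and *Abcc6*, with 5011 and 1732 counts in No364 and at most 7 and 3 elsewhere. With its defaults DESeq2 called 1 other ABC gene and 1 doxorubicin gene (2.33% of all genes). On the pair summed it called 1 carrier and no gene of the other lists (0.797% of all genes). The number of transporters whose genotypes did not overlap ranged from 1 to 4 over the left-out tumors. It was 2 without No244, 4 without No203 and 2 without No279. Non-overlap comes about more easily with fewer libraries, and the share over all genes was not counted with a tumor left out. With all libraries that share was 19.1%, so nothing about the transporters is read from these counts.

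Of 136 log2 fold changes of the 8 tested transporters under the alternatives, 127 kept their direction and their side of the threshold, and 9 turned. *Abcb1b* ranged from -0.27 to 1.36 over the left-out tumors (negative without No279) and *Abcc1* from -1.06 (without No279) to 0.67, and *Abcc1* was -0.33 with limma-voom. *Abcc3* ranged from -1.51 (without No364) to 2.75, and was -1.57 with the hepatocyte score as covariate and -1.18 with No316 and No368 summed and No364 left out. *Abcg2* ranged from -0.00043 (without No364) to 1.70, and was -0.080 and -0.067 under those same settings. The cause was not tested. *Abcb1a*, *Abcb4* and *Abcc4* were above 0 and *Abcc5* below 0 in each fit. The number of transporters at an unadjusted p under 0.05 lay between 0 and 3. It was 3 without a low-count filter, with DESeq2 without the Cook's distance filter and without No279. Over all genes, 2542 of 25317, 3646 of 25317 and 1911 of 17502 passed in these fits. It was 0 with limma-voom, with the hepatocyte score, with edgeR on the pair summed (also with No364 left out) and without No316, No368 or No364. No paired analysis was possible because the tumors of the genotypes share no replicate numbers. The biological coefficient of variation was 0.708. The MDR1 genes had between 39 and 2110 counts per tumor, whereas *Abcb11* and *Abcc2* lay near the smallest detectable level in 5 tumors.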
